A study of Homo sapiens with 4 samples.

Results

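The genes described here encode the proteins of the mitochondrial ribosome, taken as every row of the 4 deposited tables whose gene symbol is MRPL or MRPS followed by a number and at most 1 letter (called MRP genes below). The rule found 77 of 20226 listed genes, with 76 distinct symbols, since MRPS17 stands on 2 rows. By symbol, 47 rows name the large subunit and 30 the small subunit. RNA sequencing compared Huh7 cells, an established human hepatocellular carcinoma line, carrying a short hairpin RNA against NUP210 (shNUP210, genotype shNUP210, 2 libraries) with Huh7 cells whose titles name a control (shCon, genotype given as wild type, 2 libraries). All 4 libraries are labelled untreated. The labels do not say how the hairpins were delivered, whether the cells were clones or pools, at what time RNA was taken, or whether replicate libraries stem from different cultures. The p-values therefore cover library-to-library variation, which could be purely technical. NUP210 encodes a nuclear pore protein anchored in the nuclear membrane, and the series' design text names the transcriptome-wide response to its knockdown as the question.

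The mitochondrial ribosome translates the few proteins still encoded by mitochondrial DNA, all of them parts of the respiratory chain and ATP synthase. Its RNAs come from mitochondrial DNA, but every one of its proteins is encoded in the nucleus, made in the cytosol and imported. Compared with its bacterial ancestor it carries less RNA and more protein, so some subunits have bacterial homologues and others are specific to mitochondria. Liver cells are rich in mitochondria, and the transcription factors NRF1, GABPA and YY1 are known regulators of nuclear genes for mitochondrial proteins.

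Because a promoter is what these scattered genes could share, their start regions were searched first. RefSeq (GRCh38.p14) gave a window from 250 bases before to 50 bases after the transcription start for 67 of the MRP genes. MRPL10, MRPL13, MRPL15, MRPL2, MRPL21, MRPL23, MRPL35, MRPS28 and MRPS36 had no match. Nor had the second row of MRPS17, whose first row is among the 67. The core CCGGAAG of ETS factors such as GABPA stood on either strand of 28 of 67 windows (41.8%), against 20.7% of the windows of 7529 other tested genes and 10.7% of all 27305 windows. In 21 of those 28 genes a match lay within 100 bases before the start. The 60 bases before the start are shown for 5 of the 28, chosen after the matches were seen to cover both subunits and both directions of change, with the core in capitals (CTTCCGG is the same core on the other strand):

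MRPL27, chr17:50373185-50373244, minus strand: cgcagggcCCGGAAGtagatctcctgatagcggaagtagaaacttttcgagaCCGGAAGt
MRPL20, chr1:1407294-1407353, minus strand: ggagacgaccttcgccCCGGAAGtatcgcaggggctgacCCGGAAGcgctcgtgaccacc
MRPS10, chr6:42217862-42217921, minus strand: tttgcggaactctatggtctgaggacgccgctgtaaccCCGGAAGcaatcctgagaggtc
MRPS18A, chr6:43687792-43687851, minus strand: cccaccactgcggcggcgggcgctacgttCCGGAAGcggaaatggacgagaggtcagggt
MRPS34, chr16:1773135-1773194, minus strand: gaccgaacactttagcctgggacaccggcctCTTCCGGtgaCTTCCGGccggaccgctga

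The YY1 core AAGATGGC (GCCATCTT on the other strand) was found in 20 of 67 windows (29.9%), against 6.04% of those of the other tested genes and 3.03% of all windows. Of these 20 genes, 15 had a match after the start. These were 8 large-subunit and 7 small-subunit genes. Stretches of 26 bases around the match, with the core in capitals, are shown for 8 of these 15, picked after the matches were seen to cover both subunits and both like and unlike letters after the core:

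MRPS10, chr6:42217836-42217861, minus strand: gggaccggcAAGATGGCggcgcggac
MRPS18A, chr6:43687766-43687791, minus strand: aggtttttgAAGATGGCggccctcaa
MRPS18B, chr6:30617854-30617879, plus strand: gcgtacgtcAAGATGGCggcgtctgt
MRPS30, chr5:44808951-44808976, plus strand: tcgcgggcaAAGATGGCggcggccag
MRPL46, chr15:88467364-88467389, minus strand: ggagaacgaAAGATGGCggcgcccgt
MRPL45, chr17:38297172-38297197, plus strand: tgcgggaacAAGATGGCagcccccat
MRPL42, chr12:93467513-93467538, plus strand: gattgaaacAAGATGGCgggttcgtg
MRPL51, chr12:6493225-6493250, minus strand: gtaaggcccAAGATGGCtgtcttcgc

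The core of the SP1 site, GGGCGG, was in 61.2% of the windows of MRP genes against 72.0% of those of the other tested genes. TATAAA was in 2.99% and 5.25%. The NRF1 core GCGCATGCG was in 3 windows (4.48% against 4.13%), those of MRPL17, MRPL22 and MRPS18C. Each motif was searched on both strands, and where matches of different motifs overlap they were counted for each. A match is a string of letters and no shown binding site.

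Values are TPM, an expression unit that the authors normalised for transcript length and library total. Sequencing depth cannot be read from TPM, so each value carries only the spread between libraries. NUP210 itself stood at 10.1 and 9.85 TPM in shNUP210 and at 32.8 and 27.3 TPM in shCon (log2 fold change -1.49, SE 0.24, limma adjusted p = 0.043, an adjusted p that exceeded 0.05 in 8 of the 14 alternative fits). All 9 hepatocyte markers examined, such as ALB and AFP, were at 5 TPM or more in every library, with summed levels of 15002 to 15218 TPM in shNUP210 and 19289 to 19770 TPM in shCon. Within that sum APOA1 stood at a mean of 2059 against 5099 TPM, SERPINA1 at 1609.6 against 2675.5 TPM and TF at 1309 against 2252 TPM. ALB (2494 against 2479 TPM), APOB (149.0 against 146.0 TPM) and AFP (5988 against 5536 TPM) were not lower. FGB was at 930.4 against 936.9 TPM, and TTR (417.6 against 281.7 TPM) and HNF4A (153.1 against 123.5 TPM) were higher. The summed level of 4 fibroblast markers was 16.2 to 32.7 TPM in shNUP210 and 8.94 to 12.6 TPM in shCon. Of these COL1A1 gave 7.55 to 18.9 and 1.25 to 3.80 TPM, and PDGFRB 7.44 to 12.6 and 7.37 to 8.59 TPM. THY1 was listed at 0 in 3 of the 4 libraries. The summed level of the leukocyte markers CD68 and CD14 was 6.30 to 21.3 TPM in shNUP210 and 27.4 to 35.2 TPM in shCon. The 3 endothelial markers sought and the leukocyte marker PTPRC were not among the listed genes, so no level is given for them. The part of these markers in the values below was not tested. In bulk RNA, fewer cells that express a gene and less RNA per cell cannot be told apart.

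No MRP gene passed the test after NUP210 knockdown. Of 74 tested MRP genes, 0 were called higher and 0 lower by limma on log2(TPM + 1) at a Benjamini-Hochberg adjusted p under 0.05 over all 10140 tested genes, where 2.86% of all genes were called (1.79% higher, 1.07% lower). The lowest adjusted p of an MRP gene was 0.072. At an unadjusted p under 0.05 there were 10 MRP genes (13.5%), 6 higher and 4 lower, against 24.3% of all genes (18.4% higher, 5.95% lower). The tested genes are those with at least 5 TPM in at least 2 libraries, and MRPL30, MRPL50 and the second row of MRPS17 did not reach this.

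A missed threshold does not show equal levels, but the size of the changes was bounded for most of these genes. The fitted log2 fold changes (shNUP210 over shCon, computed from TPM + 1, so that changes of weakly expressed genes come out too small) ran from -0.82 to 0.84. No MRP gene reached a fitted 2-fold change in either direction, which 10.7% of all tested genes did. That bound belongs to TPM as deposited: MRPL24 was at -1.05, -1.05, -1.03 and -1.01 after trimmed-mean, median-ratio, upper-quartile and quantile scaling, MRPS28 at 1.02 without shNUP210 replicate 1, and MRPS36 at 1.14 without shCon replicate 1. In TPM as deposited, the 95% interval of the fold change lay within 2-fold either way for 54 of the 74 (73.0%), against 41.8% of all tested genes. The spread of the log2 fold changes was 0.35 (SD over 74 MRP genes) against 0.64 over all tested genes. Levels were not matched in these comparisons, the median being 53.6 TPM for MRP genes and 20.4 TPM for all tested genes. At 20 to 50 TPM the SD was 0.33 against 0.54, and at 100 to 500 TPM 0.22 against 0.47. The median absolute difference between the 2 libraries of a group was 0.21 (shNUP210) and 0.19 (shCon) on the log2 scale for MRP genes. Their median absolute fold change was 0.24, and over all tested genes these values were 0.26, 0.27 and 0.37. A difference between single libraries varies more than a difference between group means, so these values cannot be compared directly.

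**Figure D1:**
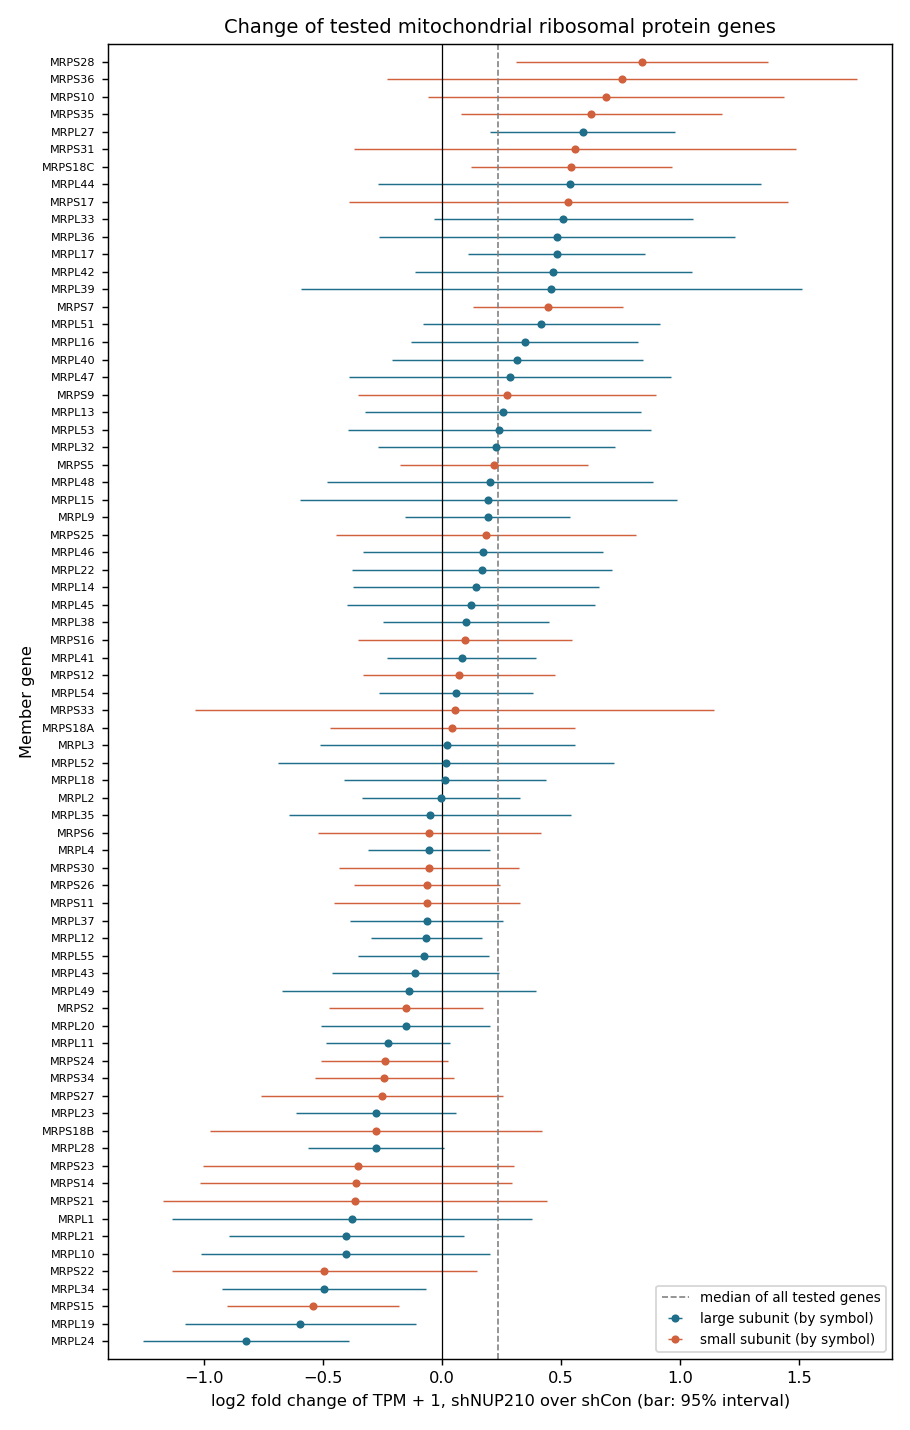
Log2 fold change of TPM + 1 (shNUP210 over shCon) for the 74 tested MRP genes, with 95% intervals, coloured by the subunit their symbols name; the dashed line is the median of all tested genes. The estimates run from -0.82 (MRPL24) to 0.84 (MRPS28), the 4 highest being small-subunit and the 2 lowest large-subunit symbols.

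As a set, the MRP genes lay below the middle of the transcriptome. Their median log2 fold change was 0.06, against 0.23 over all tested genes, and 22 of the 74 lay above the median of all genes. In TPM as deposited 42 had a positive and 32 a negative fold change (56.8% positive). That split follows the scaling: after trimmed-mean scaling, which brings the median of all genes to 0.02, 31.1% were positive and the median of the MRP genes was -0.17. The distance to the median of all genes was -0.18 in the first case and -0.19 in the second, but -0.12 after quantile normalization and -0.08 with the trends of level and GC content described below removed. Both shNUP210 libraries lay above both shCon libraries for 21 MRP genes (28.4%, against 42.9% of all tested genes) and below both for 17 (23.0%, against 14.3%), and the groups overlapped for the other 36.

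The large and the small subunit moved little apart. The 45 tested large-subunit genes had a median log2 fold change of 0.08 and the 29 small-subunit genes 0.04. The large-subunit genes held 27 positive and 18 negative changes, and the small-subunit genes 15 and 14. The small-subunit values were spread more widely, with an SD over genes of 0.40 against 0.32. The difference of the medians was 0.04, higher for the large subunit. For scale, the large minus small median log2 level had an SD of 0.15 for a difference between single libraries of the 2 groups. That SD was computed from the spread between the 2 libraries of each group and is wider than for a difference of group means. Without shNUP210 replicate 2 the direction of the difference of the medians turned, to -0.04. Without shNUP210 replicate 1 or shCon replicate 2 this difference was 0.10 or 0.08. It was 0.11 with no filter on low values, 0.08 after quantile normalization and 0.18, above that SD, without the genes that share exons with another gene. No permutation p under 0.33 is possible with 2 libraries against 2, and none is given.

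Summed TPM gave the same picture of balance. Large-subunit genes summed to 4361 and 4329 TPM in the shNUP210 libraries and to 4338 and 4628 TPM in the shCon libraries. Small-subunit genes summed to 2093 and 2004 TPM and to 2088 and 2163 TPM. The ratio of the large to the small sum was 2.12 ± 0.05 in shNUP210 and 2.11 ± 0.04 in shCon (SD, n = 2 each), and the groups overlapped. All MRP genes together took 0.645 and 0.633% of TPM in shNUP210 and 0.643 and 0.679% in shCon, again overlapping. The median MRP gene, in contrast, was at 53.1 and 53.2 TPM in shNUP210 and at 46.5 and 46.3 TPM in shCon, higher in both knockdown libraries. In TPM as deposited the median log2 fold change was 0.23 over all tested genes and 0.06 over MRP genes. After scaling, the MRP median was negative, from -0.17 (trimmed-mean) to -0.11 (quantile). The top 100 genes by TPM took 37.6 and 38.1% of TPM in shNUP210 and 42.8 and 43.5% in shCon. The part of this shift in the higher MRP median was not tested. The sums are weighted towards the abundant genes: of the 19 MRP genes at 100 TPM or more on average, 13 had a negative fold change.

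A symbol is not always a place in the ribosome. MRPS18A and MRPS30 are small-subunit names for proteins that sit in the large subunit of the solved structure, and the MRPS36 protein is now known as a part of the 2-oxoglutarate dehydrogenase complex and not of the ribosome. MRPS30 was at 57.6 and 53.2 TPM in shNUP210 and 55.4 and 59.7 TPM in shCon, with overlapping groups. MRPS36 was at 11.2 and 9.34 TPM against 7.68 and 4.08 TPM, a positive change of 0.76 (SE 0.40, limma adjusted p = 0.30). With the genes placed by structure, the medians were 0.06 (47 large-subunit genes) and 0.0004 (26 small-subunit genes).

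Split by ancestry, genes with a bacterial homologue (45 tested) had a median log2 fold change of 0.01 and mitochondria-specific ones (29 tested) of 0.08. The split within the large subunit was wider, with 0.15 for the 16 mitochondria-specific genes (13 positive, 3 negative) and -0.003 for the 29 with a bacterial homologue (14 positive, 15 negative). In the small subunit by symbol the medians were -0.05 for the 13 mitochondria-specific and 0.09 for the 16 conserved genes. With MRPS18A, MRPS30 and MRPS36 taken out of the small subunit, the first was -0.15 (10 genes), and with MRPS18A and MRPS30 added the large-subunit value was 0.11 (18 genes). MRPS18A and MRPS18B, although related to bacterial S18, are counted as mitochondria-specific, as the current protein names class them.

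At the low end of the range stood MRPL24, MRPL19, MRPS15, MRPL34 and MRPS22. MRPL24 (GRCh38 chromosome 1, 156737303 to 156741590, minus strand) encodes a large-subunit protein with a bacterial homologue next to the exit of the peptide tunnel. It was at 46.3 and 48.2 TPM in shNUP210 and at 74.75 and 94.98 TPM in shCon. Both knockdown libraries lay below both controls, at 0.557 of the control mean, with a log2 fold change of -0.82 (SE 0.17, limma adjusted p = 0.072). After upper-quartile scaling it was the single MRP gene called (-1.03, limma adjusted p = 0.049; 2.27% of all genes were called lower in that fit).

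MRPS15, a small-subunit protein that binds the ribosomal RNA in bacteria, was at 72.1 and 81.7 TPM against 119.6 and 105.4 TPM (log2 fold change -0.54, SE 0.15, limma adjusted p = 0.11). MRPL19, a conserved large-subunit protein, was at 26.9 and 23.5 TPM against 36.1 and 41.1 TPM (-0.59, SE 0.20, adjusted p = 0.15). MRPL34, the homologue of a small bacterial large-subunit protein, was at 136.6 and 114.5 TPM against 155.0 and 201.7 TPM (-0.50, SE 0.17, adjusted p = 0.16). In these 3 genes the groups did not overlap. They were picked for low folds, which favours separation, and 14.3% of all tested genes lay lower without overlap. MRPS22, a mitochondria-specific small-subunit protein, was at 13.4 and 17.4 TPM against 19.7 and 24.4 TPM (-0.49, SE 0.26, adjusted p = 0.30), also without overlap.

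At the high end stood MRPS28, MRPS36, MRPS10, MRPS35 and MRPL27. MRPS28 (chromosome 8, 79918717 to 80030289, minus strand), a small-subunit protein, was at 33.9 and 43.7 TPM in shNUP210 and at 21.2 and 21.0 TPM in shCon. This was 1.84 times the control mean, with a log2 fold change of 0.84 (SE 0.21, limma adjusted p = 0.097). MRPL27 (chromosome 17, 50367857 to 50373214, minus strand), whose bacterial homologue reaches the peptidyl transferase centre and whose start region with its ETS cores is printed above, was at 64.8 and 73.5 TPM against 46.5 and 44.4 TPM (0.59, SE 0.16, adjusted p = 0.10). MRPS35, a mitochondria-specific protein, was at 55.6 and 68.3 TPM against 46.4 and 33.7 TPM (0.63, SE 0.22, adjusted p = 0.17). MRPS10, conserved from bacteria, was at 11.4 and 11.2 TPM against 6.44 and 6.78 TPM (0.69, SE 0.30, adjusted p = 0.23). None of these 5 had overlapping groups, and none passed the test. They were picked for high folds, which favours separation, and 42.9% of all tested genes lay higher without overlap.

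**Figure D2:**
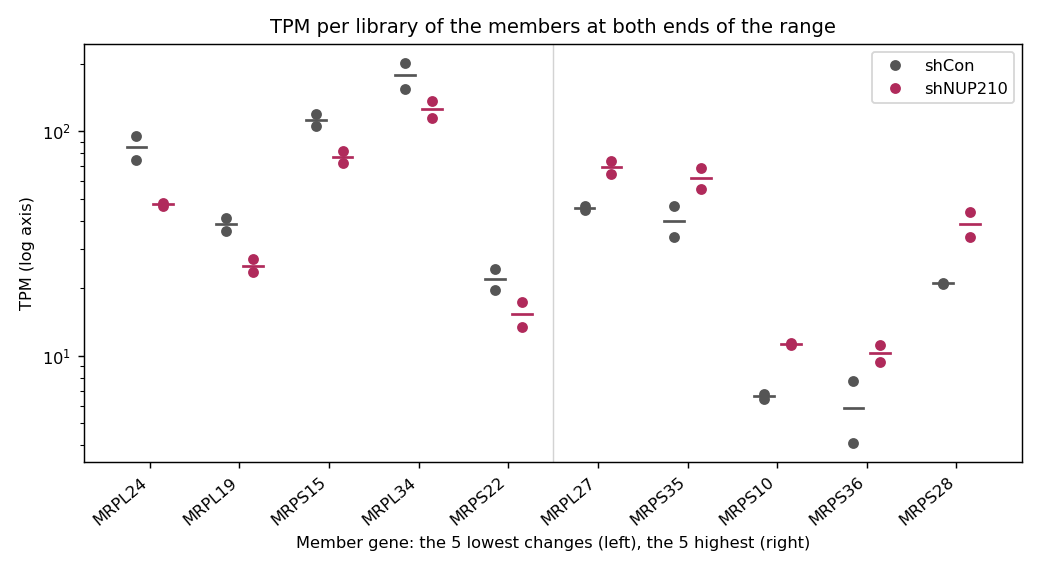
TPM (log axis) of the 5 MRP genes with the lowest and the 5 with the highest log2 fold change, each point a library and each bar a group mean. In all 10 genes the groups are apart, by 46.3 and 48.2 against 74.75 and 94.98 TPM in MRPL24 and by 33.9 and 43.7 against 21.2 and 21.0 TPM in MRPS28; none passed the adjusted test, and these 10 were picked for their folds.

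The stalk is where translation factors dock, and its genes gave negative fold changes, from -0.07 to -0.40 in TPM as deposited, that did not pass the test. MRPL12, the stalk protein itself, was at 242.6 and 246.1 TPM in shNUP210 and at 255.1 and 256.2 TPM in shCon. Its log2 fold change of -0.07 had a 95% interval of -0.30 to 0.17, the SE of 0.09 being the smallest of any MRP gene. The interval leaves out the choice of scaling. After trimmed-mean, median-ratio, upper-quartile and quantile scaling MRPL12 was at -0.30, -0.29, -0.27 and -0.12. MRPL11, the stalk-base protein and the most abundant MRP transcript, was at 571.8 and 658.3 TPM against 682.4 and 756.8 TPM (-0.23, 95% interval -0.49 to 0.03). MRPL10, the anchor of the stalk, was far lower, at 24.2 and 17.3 TPM against 28.8 and 26.1 TPM (-0.40, SE 0.24). After the same scalings MRPL11 was at -0.46, -0.45, -0.43 and -0.23, and MRPL10 at -0.63, -0.62, -0.60 and -0.66. In all 3 both knockdown libraries lay below both controls, as they did for 23.0% of tested MRP genes and 14.3% of all tested genes.

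Genes of 3 other functional sites did not pass the test either. MRPS12, the homologue of the bacterial protein that shapes the decoding centre, was at 126.9 and 111.6 TPM against 100.4 and 127.4 TPM, with overlapping groups (0.07, SE 0.16). MRPL45, which ties the ribosome to the inner membrane, was at 27.0 and 34.3 TPM against 28.7 and 27.1 TPM, also overlapping (0.12, SE 0.21). Both of these fold changes were negative after each of the 4 scalings tried. MRPL44, a protein with a ribonuclease III-like fold, was at 17.5 and 11.1 TPM against 8.93 and 9.68 TPM, without overlap (0.54, SE 0.32, limma adjusted p = 0.35). Its fold change was 0.23 without shNUP210 replicate 1, and 0.24 to 0.35 over the 4 scalings.

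The human genome has 3 MRPS18 genes related to bacterial protein S18. MRPS18C, the one most like the bacterial protein, was at 64.3 and 55.1 TPM in shNUP210 and at 42.4 and 38.8 TPM in shCon, with no overlap (log2 fold change 0.54, SE 0.17, limma adjusted p = 0.14). MRPS18A was at 47.2 and 52.5 TPM against 41.2 and 56.6 TPM (0.04, SE 0.21) and MRPS18B at 21.4 and 22.2 TPM against 34.0 and 20.8 TPM (-0.28, SE 0.28), both overlapping. The difference between the paralogs was not tested.

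Levels of the MRP genes span a wide range although the proteins are built into the ribosome in single or few copies. After MRPL11 (mean of 667.3 TPM over the 4 libraries) came MRPS34 at 407.7 TPM, a mitochondria-specific small-subunit protein, and MRPL52 at 331.6 TPM, a mitochondria-specific large-subunit protein. MRPS34 was at 394.2 and 352.3 TPM in shNUP210 and 407.4 and 477.0 TPM in shCon. MRPL52 varied within each group more than between them, at 430.1 and 246.0 TPM against 276.7 and 373.6 TPM, so its place relative to MRPS34 differed between libraries. TPM is per length, so these levels can be compared between genes, but it depends on how reads were shared among transcripts and overlapping genes.

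At the bottom were MRPL30, MRPL50 and the second row of MRPS17. MRPL50 was at 4.21 and 6.97 TPM against 2.98 and 4.31 TPM. The second row of MRPS17 (ENSG00000249773), which shares 471 exon bases with the first on the same strand, was listed at 0 in shNUP210 replicate 1 and shCon replicate 1 and at 0.79 and 1.27 TPM in the others. MRPL30 was listed at 18.8 and 0 TPM in shNUP210 and at 2.12 and 0 TPM in shCon. C2orf15, whose exons share 564 bases with MRPL30 on the same strand, was at 0.88 TPM in the library where MRPL30 was at 18.8 TPM, and at 14.3, 11.5 and 12.7 TPM in the others. Among the 75 MRP rows with a position in GENCODE release 29, 33 share 100 exon bases or more with another listed gene. Their reads may be split with that gene. Among the genes with a printed sequence or value these are, besides MRPL30 and MRPS17, MRPL11, MRPL19, MRPL34, MRPL42, MRPL44, MRPS12, MRPS18A, MRPS18C, MRPL20 and MRPL51. The median log2 fold change was 0.07 for the 31 tested genes with such an overlap and 0.05 for the other 43.

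Abundance and base composition moved with the fold change. MRP genes at 5 to 20 TPM on average had a median log2 fold change of 0.46 (11 genes), those at 20 to 50 TPM of 0.17 (21 genes), those at 50 to 100 TPM of 0.10 (23 genes) and those at 100 to 500 TPM of -0.07 (18 genes). All tested genes showed the same order, with medians of 0.32, 0.26, 0.18 and 0.09 in those ranges. From 20 TPM upwards the medians of the MRP genes lay below those of all genes at the same level, and at 5 to 20 TPM above.

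With GC content the picture was similar. The 36 MRP genes whose listed transcripts had the lower GC content had a median log2 fold change of 0.21, and the 36 with the higher -0.06. Spearman's rho between GC content and fold change was -0.38 over 72 MRP genes and -0.27 over 9980 tested genes. These are descriptions across genes of the same 4 libraries, and genes are not independent replicates. GC content and level were themselves tied among MRP genes (rho of 0.73), so their parts cannot be told apart here. With the trends of level and GC content over all genes removed, a setting added after seeing the data, the median of the MRP genes was 0.16 and that of all genes is 0.23 by construction.

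**Figure D3:**
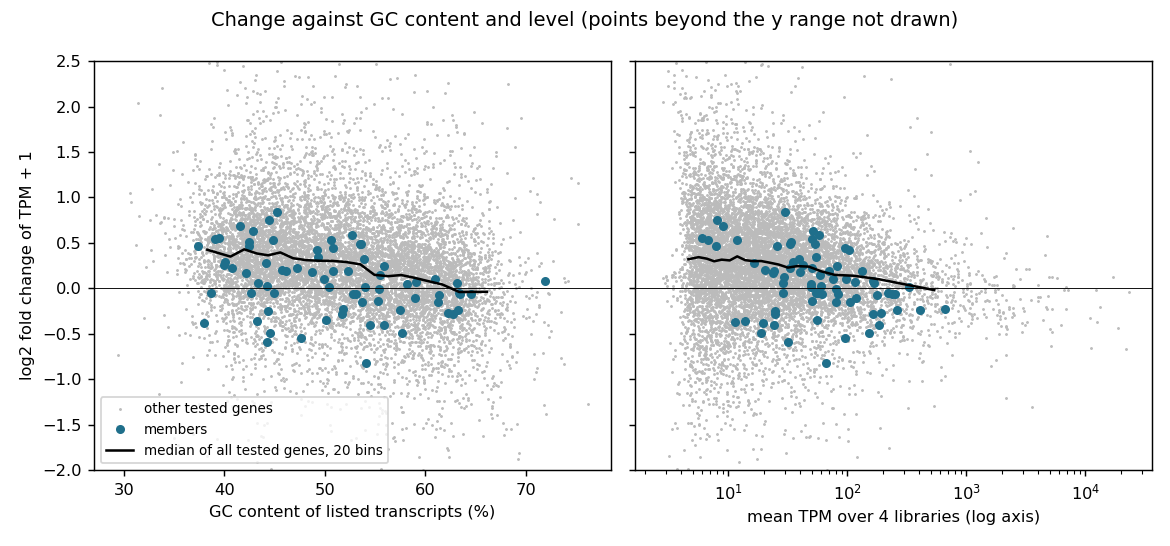
Log2 fold change of TPM + 1 against GC content of the listed transcripts (left, %) and against mean TPM (right, log axis) for MRP genes (blue) and other tested genes (grey), with the median of all tested genes in 20 bins as a line. The medians of the blue points fall from 0.46 at 5 to 20 TPM, above the 0.32 of all genes, to -0.07 at 100 to 500 TPM, below the 0.09 of all genes.

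The shared promoter letters went with small differences. MRP genes with an ETS core had a median log2 fold change of 0.07 (27 tested) and those without of -0.02 (38 tested). The medians with and without the YY1 core were 0.12 (19 tested) and 0.02 (46 tested). Of the factors themselves, YY1 was at 33.8 and 29.4 TPM in shNUP210 and 23.5 and 18.2 TPM in shCon (0.59, SE 0.23, limma adjusted p = 0.19). SP1 had a log2 fold change of 0.54 (SE 0.27), GABPB1 of 0.44 (SE 0.31) and NRF1 of 0.18 (SE 0.44), also without a call. A link between the factors and the matches was not tested.

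Many MRP genes start back to back with a neighbour on the other strand. For 30 MRP genes, another listed gene started on the opposite strand within 1000 bases. MRPL46 and MRPS11 form such a pair, 34 bases apart, joining a large-subunit with a small-subunit gene. MRPL46 was at 36.9 and 48.9 TPM in shNUP210 and 38.8 and 36.4 TPM in shCon, and MRPS11 at 65.2 and 55.3 TPM against 63.2 and 62.4 TPM, both overlapping. The 22 tested partners outside the MRP family had a median log2 fold change of 0.47, with 20 positive and 0 called. Over all tested genes the median was 0.23, with 68.9% positive and 2.86% called. The 21 tested MRP genes beside these partners had 0.06. Levels were not matched in this comparison, and all tested genes at 5 to 20 TPM had a median of 0.32. The partners MTBP and PTCD2 passed the filter only through their shNUP210 libraries. An example of such a pair is MRPL51 and NCAPD2, a condensin subunit gene. They share 486 exon bases on opposite strands, so their reads may be split between them. MRPL51 was at 100.3 and 137.1 TPM against 97.5 and 78.6 TPM, and NCAPD2 at 116.8 and 117.9 TPM against 59.5 and 90.4 TPM (0.67, SE 0.22, limma adjusted p = 0.15).

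The rest of the mitochondrial translation apparatus, taken as 4 lists of genes, held no called gene, and with 2.86% called over all tested genes lists of this size would hold few. Of 7 genes for subunits without an MRP symbol, among them OXA1L, the membrane insertase that binds the ribosome, 0 were called, with a median log2 fold change of 0.04. DAP3, a GTP-binding small-subunit protein, was the lowest at 100.1 and 92.1 TPM against 128.4 and 101.4 TPM, and CHCHD1 the highest at 59.7 and 51.8 against 42.8 and 52.3 TPM. Of 24 tested assembly factors 0 were called (median 0.11), from RPUSD3 at -0.59 to MTERF4 (listed as MTERFD2) at 0.58. Of 14 translation factors 0 were called (median 0.32), from the translational activator TACO1 at -0.31 to the release factor MTRF1L at 0.87. Of 19 mitochondrial tRNA synthetases and related enzymes 0 were called (median 0.16), with IARS2 the lowest at -0.43.

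Genes that act before and after translation were no different in calls. Of 18 genes of mitochondrial DNA expression and maintenance 0 were called (median 0.36), with the nuclease gene MGME1 highest at 18.2 and 20.3 TPM against 7.69 and 13.4 TPM. Of 30 protein import genes 0 were called (median 0.02), from DNAJC19 at -0.74 to the channel gene TIMM23 at 1.23 (27.9 and 33.6 TPM against 14.7 and 10.6 TPM, limma adjusted p = 0.072). Of 11 tested candidate regulators 0 were called (median 0.26, 8 positive), with YY1 the highest. MYC, a driver of ribosome production, was the lowest, at 51.3 and 50.4 TPM against 81.7 and 72.7 TPM (-0.59, SE 0.15, limma adjusted p = 0.096), with no overlap.

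Set beside their closest counterparts, the MRP genes resembled respiratory chain genes in their median and lay above cytosolic ribosomal protein genes. The 77 tested oxidative phosphorylation subunits, the enzymes the mitochondrial ribosome serves, had a median log2 fold change of 0.001, with 1 called higher: NDUFA6, at 90.7 and 87.6 TPM against 49.2 and 49.5 TPM (0.84, SE 0.14, limma adjusted p = 0.048). The 80 cytosolic ribosomal protein genes had a median of -0.12, with 0 called higher and 8 lower (10140 tested genes gave 1.79% and 1.07%), such as RPL28 at 1588 and 1551 TPM against 2198 and 2244 TPM (-0.50, limma adjusted p = 0.027). Those genes are far more abundant, with a median of 1486 TPM against 53.6 TPM for tested MRP genes. These 9 calls were all lost with a filter of 1 TPM, no filter, no mean-variance trend, and without either shCon library. The difference between these lists was not tested.

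**Figure D4:**
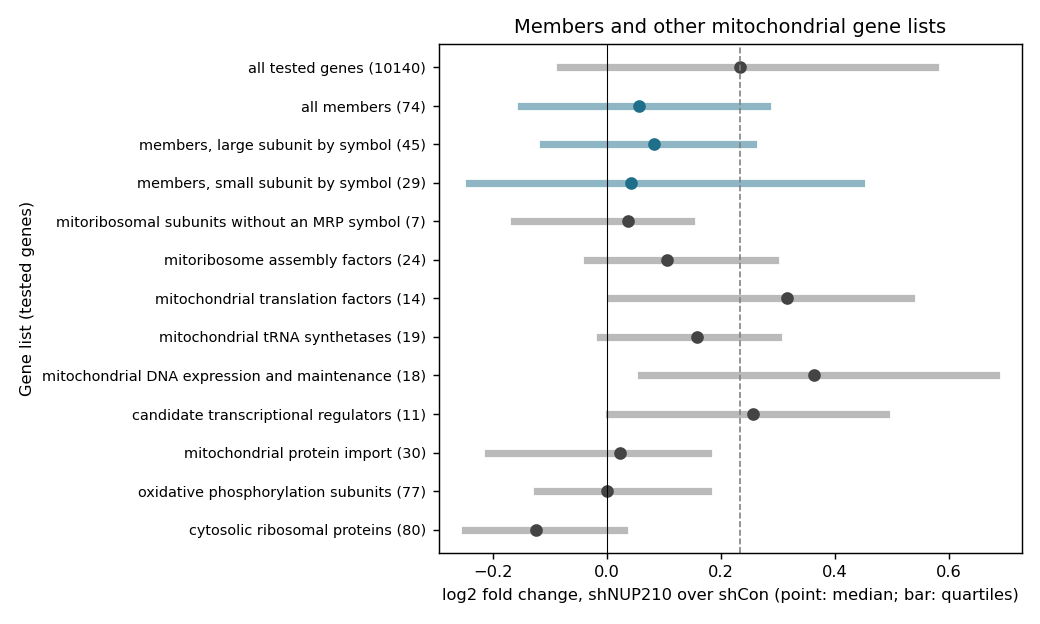
Median (point) and quartiles (bar) of the log2 fold change for MRP genes (blue), the other mitochondrial gene lists and cytosolic ribosomal proteins (grey), with the number of tested genes in brackets. The medians run from -0.12 (cytosolic ribosomal proteins) to 0.36 (mitochondrial DNA expression), with MRP genes at 0.06 and all tested genes at 0.23 (dashed line).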

How the data were processed

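RNA of 4 Huh7 libraries was sequenced (total RNA by Trizol, Illumina TruSeq RNA kit, per the labels' protocols). The authors deposited 1 table per library with 1 TPM value per gene; the unit was read from column sums of 999992.7 to 999997.8. The submitters' processing notes list hg38 as the build and name RSEM, STAR, Trimmomatic and DESeq; versions, roles, annotation release and strand setting are not given in the sources used here, so reads of overlapping genes may be shared out in an unknown way. Limma (3.58.1, R 4.3.3) was fitted on log2(TPM + 1) over all genes with at least 5 TPM in 2 libraries, with a mean-variance trend and Benjamini-Hochberg adjustment, and was tested on simulated data. Positions, exon overlaps, length and GC content come from GENCODE release 29 (GRCh38), GC content being the mean over listed transcripts. MRPL57 is listed under its older symbol MRP63 and so falls outside the rule. The named genes are the 5 highest and 5 lowest folds, the 3 highest and 3 lowest levels, and genes chosen for their role; MRPL20, MRPL42, MRPL46, MRPL51 and MRPS11, the partner genes and RPL28 were added as examples after their values were seen. The filter, the members and the lists were chosen with earlier results of these data known. Alternative filters, pseudocount, scalings, variance models, a replicate block and fits without each library were run.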

Additional observations from a re-analysis of the deposited data

How the results depend on the processing

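The count of MRP genes called higher was 0 in every alternative run, and the count called lower was 0 in all but upper-quartile scaling (1, MRPL24, log2 fold change -1.03). The median log2 fold change of MRP genes was -0.17 after trimmed-mean, -0.17 after median-ratio, -0.15 after upper-quartile scaling and -0.11 after quantile normalization. It ranged from -0.015 (without shCon replicate 1) to 0.062 when 1 library was left out, and was 0.16 with the level and GC trend removed. NUP210 stayed at -1.49 but lost its call with a filter of 1 TPM in 2 libraries, no filter, no mean-variance trend and the replicate block, and in every fit without a library (-1.62 to -1.37). Over the other gene lists 9 genes were called, against 0 with a filter of 1 TPM, 0 with no filter, 0 without the trend, 23, 22 and 22 after trimmed-mean, median-ratio and upper-quartile scaling, 3 after quantile normalization, and 0 to 5 without 1 library. Over all genes, 290 were called, against 57 with a filter of 1 TPM, 14 with no filter, 0 with no mean-variance trend, 209 with a pseudocount of 0.1 TPM and 29 without either shCon library. Scaling reversed MRPL45 (-0.10, -0.098, -0.078 and -0.13 for trimmed-mean, median-ratio, upper-quartile and quantile), MRPL52 (-0.21, -0.21, -0.19 and -0.0099), MRPS12 (-0.16, -0.15, -0.13 and -0.039) and MRPS18A (-0.18, -0.18, -0.16 and -0.15). Leaving out 1 library reversed 6 named genes in at least 1 fit, with ranges of -0.046 to 0.29 (MRPL45), -0.39 to 0.42 (MRPL52), -0.098 to 0.24 (MRPS12), -0.18 to 0.27 (MRPS18A), -0.62 to 0.062 (MRPS18B) and -0.11 to 0.0016 (MRPS30). Another 8 of the 22 named genes kept their sign but moved by over 1.5 times, with ranges of -0.64 to -0.17 (MRPL10), -0.33 to -0.13 (MRPL11), -0.69 to -0.31 (MRPL34), 0.23 to 0.84 (MRPL44), -0.67 to -0.32 (MRPS22), -0.36 to -0.13 (MRPS34), 0.40 to 0.85 (MRPS35) and 0.37 to 1.14 (MRPS36). The difference of the subunit medians ranged from -0.04 to 0.10 when 1 library was left out. The cause was not tested beyond the shift that scaling puts on all genes. Same-numbered libraries did not deviate together (correlation 0.02 over tested genes), so the numbers are not taken as pairs. With the number as a replicate block, 63 genes were called in all, 0 of them MRP genes and 2 on the other lists. Depth is unknown, which limits the low genes most.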

Other observations

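Rows next to the family, outside the rule, were looked at as well. MRPS18AP1, which by its name is a pseudogene of MRPS18A, was at 5.0 and 5.36 TPM in shNUP210 and listed at 0 in both shCon libraries (limma adjusted p = 0.089). It passed the filter only through its shNUP210 libraries. The filter therefore set the direction of its change, and its test is no support for a change. MRPL57, listed as MRP63, was at 23.4 and 31.5 TPM in shNUP210 and at 33.7 and 32.3 TPM in shCon (log2 fold change -0.27, SE 0.22). MRPL13 and MTBP start within 1000 bases of each other on opposite strands. MTBP was at 14.5 and 6.31 TPM in shNUP210 and 2.36 and 1.49 TPM in shCon (1.88, SE 0.53, limma adjusted p = 0.12). MTBP also passed the filter only through its shNUP210 libraries, so its direction was set in the same way. MRPL13 was at 49.9 and 42.6 TPM against 31.9 and 46.3 TPM with overlapping groups.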
